A study of Homo sapiens with 6 samples.

Results

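EWSR1-FLI1 is the fusion oncoprotein of Ewing sarcoma, and 36 genes known as its activated targets were followed in XG knockout and wildtype TC-71 cells. The members were the rows of the deposited count table whose gene name was on a list of such targets, including genes with almost no counts. All 36 names matched 1 row each of the 60662 genes in the table. The members were chosen by name, and the fusion itself was not perturbed in these libraries.

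The fusion joins the activation domain of EWSR1 to the DNA-binding domain of FLI1, an ETS family transcription factor. ETS factors bind a GGAA core, and the fusion also binds runs of repeated GGAA, where it opens enhancers for genes that Ewing sarcoma cells depend on. Among its targets, NR0B1, NKX2-2, CCND1 and STEAP1 are widely used readouts of fusion activity in this tumour.

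TC-71 is an established human Ewing sarcoma line. Each group had 3 libraries of the line, grown in serum-containing medium without further treatment: XG knockout cells, and wildtype cells with the XG gene left intact. XG encodes a cell-surface glycoprotein related to CD99. Whether the knockout cells are 1 clone or a pool is not stated in the labels, nor is it stated that replicates were separate cultures. The p-values therefore measure only how these libraries vary, and that variation may be technical. In bulk RNA, fewer cells of a type and less RNA per cell cannot be told apart.

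The libraries held 22557187 to 31214099 counted fragments, and 14425 genes passed the filter on low counts. XG had 746, 948 and 836 counts in the knockout libraries and 1254, 1228 and 999 in the wildtype libraries, a log2 fold change of -0.63 (edgeR SE 0.0478, adjusted p = 1.65e-06), so the transcript was reduced and not absent. Knockout replicate 3 stood nearer to the wildtype libraries (chi-square per gene 2.15 to 2.38) than to knockout replicates 1 and 2 (4.70 and 4.33). All 8 Ewing sarcoma markers were detected in every library. They summed to 930.3 to 936 CPM (counts scaled to library size) in knockout libraries, against 965.9 to 989.4 CPM in wildtype libraries. Only CD99 of them was called, lower (edgeR adjusted p = 0.0302). Apart from CD99 and FLI1, these markers are themselves members, so the sum reuses the genes under study. Blood and endothelial markers summed to at most 0.522 and 0.12 CPM in knockout libraries and 0.362 and 0.217 CPM in wildtype libraries, and CD3E, HBB and VWF had no counts. Skeletal muscle markers summed to 0.683 to 1.11 CPM in knockout and 0.576 to 0.801 CPM in wildtype libraries, with MYOG and DES at 0. Neuroblast markers summed to 10.8 to 11.6 CPM in knockout and 11.1 to 11.4 CPM in wildtype libraries, nearly all from HAND2, with TH and DBH at 0. The 7 fibroblast markers, led by COL3A1 and COL1A1, summed to 73.1 to 82.3 CPM in knockout and 77.4 to 83.3 CPM in wildtype libraries. The 6 epithelial markers summed to 7.01 to 7.62 CPM in knockout and 5.14 to 5.72 CPM in wildtype libraries, with KRT18 called higher, at 3.26 CPM in knockout and 2.03 CPM in wildtype cells (edgeR adjusted p = 0.0302). The part of these markers in the results was not tested.

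Promoter sequences were taken from RefSeq (GRCh38.p14) as windows from 250 bases before to 50 bases after each gene start. Of the 36 genes, 30 had at least 1 window, 47 windows in all, and SLCO5A1, MYOM2, CCND1, PPP1R1A, MAPT and VRK1 were not matched. The tandem GGAAGGAA, read on both strands, was in 1 of 47 member windows (2.13%), that of LOXHD1, against 3.67% of all 35116 windows. A run of 3 GGAA units without a gap, which contains the tandem, was in 0 member windows and in 0.0854% of all windows. The ETS-type CCGGAA, which contains GGAA, was in 5 member windows (10.6%), those of FATE1, GSTM4, SLFN11, STEAP1 and STEAP2, against 17.2% of all. Single GGAA cores were in 42 of 47 member windows (89.4%) and in 95.5% of all, with a median of 3 matches per window in both. These counts describe letters near gene starts, and distal repeats were not searched.

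Windows are shown for both pairs of members that lie side by side in the genome, since neighbours can be compared directly, and for LOXHD1, which holds the tandem. RBM11 and LIPI lie 5239 bases apart on chromosome 21 on opposite strands, and STEAP1 and STEAP2 lie 2761 bases apart on chromosome 7. Each is written 5′ to 3′ on the gene's own strand, with every GGAA or its reverse complement TTCC in capitals. The GGAAGGAA of LOXHD1 begins 163 bases before the start, and in STEAP1 TTCCGG and CCGGAA overlap, beginning 106 bases before it. The CCGGAA of STEAP2 begins 241 bases before its RefSeq start, which lies within the gene as the count table draws it. The STEAP2 window was picked because it holds CCGGAA, and the LIPI window because its start is nearest RBM11. The LIPI window lies wholly outside the gene as the count table draws it, which ends at 14210891.
RBM11 (chr21:14215907-14216206, plus strand): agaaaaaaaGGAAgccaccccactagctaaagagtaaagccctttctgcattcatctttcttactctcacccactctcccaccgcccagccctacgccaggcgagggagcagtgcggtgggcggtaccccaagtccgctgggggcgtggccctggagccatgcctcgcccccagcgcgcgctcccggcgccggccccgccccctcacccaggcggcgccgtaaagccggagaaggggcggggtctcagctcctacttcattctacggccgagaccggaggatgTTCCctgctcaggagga
LIPI (chr21:14210906-14211205, minus strand): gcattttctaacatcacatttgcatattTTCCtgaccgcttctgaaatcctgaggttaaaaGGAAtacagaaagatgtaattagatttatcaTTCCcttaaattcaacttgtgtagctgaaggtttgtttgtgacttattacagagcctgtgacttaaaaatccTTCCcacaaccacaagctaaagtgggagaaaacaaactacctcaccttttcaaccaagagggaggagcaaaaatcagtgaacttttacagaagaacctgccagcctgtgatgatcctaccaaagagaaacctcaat
STEAP1 (chr7:90154219-90154518, plus strand): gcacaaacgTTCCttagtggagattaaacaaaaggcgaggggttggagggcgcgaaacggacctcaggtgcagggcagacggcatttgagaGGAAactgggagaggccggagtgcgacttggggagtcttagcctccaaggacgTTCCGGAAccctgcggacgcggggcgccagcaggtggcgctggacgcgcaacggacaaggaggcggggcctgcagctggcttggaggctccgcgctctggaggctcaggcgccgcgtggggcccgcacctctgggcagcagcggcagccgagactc
STEAP2 (chr7:90211490-90211789, plus strand): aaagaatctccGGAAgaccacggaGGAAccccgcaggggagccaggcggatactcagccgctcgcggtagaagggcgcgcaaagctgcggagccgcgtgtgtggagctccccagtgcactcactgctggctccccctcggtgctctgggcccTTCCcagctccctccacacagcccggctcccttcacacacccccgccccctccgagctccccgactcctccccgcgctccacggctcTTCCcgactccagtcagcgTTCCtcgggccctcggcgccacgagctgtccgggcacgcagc
LOXHD1 (chr18:46657171-46657470, minus strand): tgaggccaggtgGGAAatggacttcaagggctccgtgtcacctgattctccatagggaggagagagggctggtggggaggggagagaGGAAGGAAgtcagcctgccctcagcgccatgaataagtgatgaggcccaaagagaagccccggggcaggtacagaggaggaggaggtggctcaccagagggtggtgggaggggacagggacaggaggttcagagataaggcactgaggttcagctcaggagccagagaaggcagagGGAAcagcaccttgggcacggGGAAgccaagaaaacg

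The targets differed far more from each other in level than between XG knockout and wildtype cells. Levels between genes are compared as mean CPM per kilobase of gene length. CCND1, which encodes cyclin D1 and drives entry into S phase, had the highest wildtype level, at 285.5 in knockout and 298 CPM per kilobase in wildtype cells. ITM2A, a transmembrane protein, followed at 282.5 in knockout and 269 in wildtype cells, and STEAP1, a metalloreductase-family surface protein, at 104 in both groups. NR0B1, the orphan nuclear receptor DAX1, stood at 36.2 in knockout and 37.9 in wildtype cells, while NKX2-2, a homeodomain factor used to diagnose Ewing sarcoma, stood at 8.10 in knockout and 8.48 CPM per kilobase in wildtype cells. Together the 36 genes held 0.705% to 0.711% of all counts in knockout libraries and 0.705% to 0.71% in wildtype libraries.

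At the low end, TERT, the telomerase catalytic subunit, stood at 1.22 in knockout and 1.30 CPM per kilobase in wildtype cells. CACNB2, a calcium channel subunit, stood at 0.703 in knockout and 0.608 in wildtype cells. UPP1, a uridine phosphorylase, had 11, 7 and 14 counts in knockout and 11, 8 and 5 in wildtype libraries. FATE1, a cancer-testis antigen, had 1, 2 and 1 counts in knockout and 3, 4 and 3 in wildtype libraries, and was the only member left out by the filter on low counts. No fold is given for FATE1, because it was not tested and no library held more than 4 counts.

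**Figure D1:**
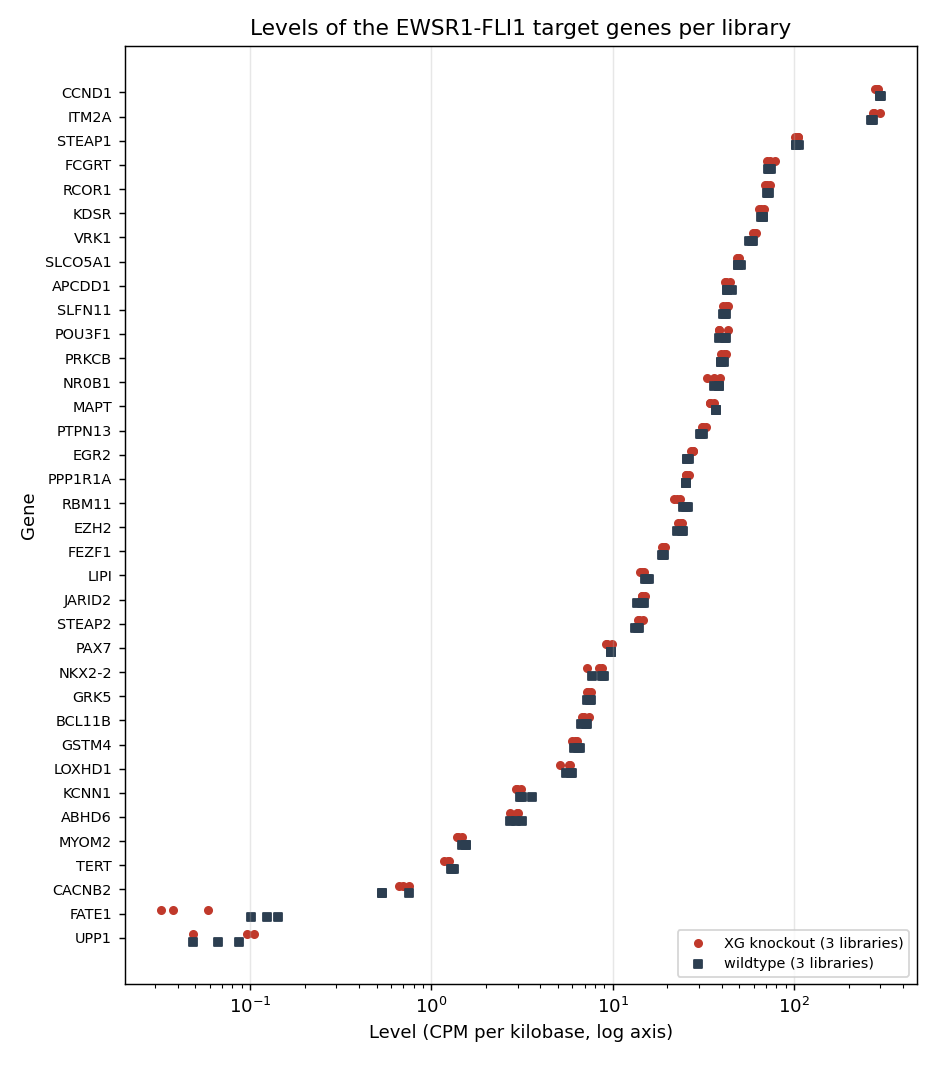
Level of each of the 36 genes in each library, in CPM per kilobase on a log axis, with knockout libraries as circles above and wildtype libraries as squares below. The genes span from FATE1 and UPP1, near 0.1 CPM per kilobase or less, to CCND1 and ITM2A, above 250, and the groups lie close together for each gene except those near the bottom.

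No member passed the test between XG knockout and wildtype cells. By edgeR's quasi-likelihood test with Benjamini-Hochberg adjustment over all genes, 0 of 35 tested members had an adjusted p under 0.05, against 1.36% of all genes tested (0.444% higher and 0.915% lower), and DESeq2 and limma voom each also called 0. At an adjusted p under 0.1 there were 2, RBM11 and MAPT, against 3.47% of all genes. At an unadjusted p under 0.05 there were 5 members (14.3%), against 16.8% of all genes. Of these, EGR2 and ITM2A were higher and RBM11, MAPT and CCND1 lower, against 6.98% of all genes higher and 9.81% lower. Knockout and wildtype libraries did not overlap in 8 members (22.9%), against 20.5% of all genes. In knockout cells EGR2 and VRK1 were the higher of these and RBM11, LIPI, MAPT, MYOM2, CCND1 and TERT the lower, with 10.7% of all genes higher and 9.8% lower in that way. Over both directions together the members' shares were near the background, though of the 8 members without overlap 2 were higher and 6 lower. In the authors' deposited table, which was also in the direction of knockout over wildtype, 28 members had an adjusted p and 0 were under 0.05.

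The fold changes were small and lay on both sides of 0. Of the 35 members 20 had a negative log2 fold change (57.1%), against 49.1% of all genes, and the median was -0.016, against 0.0019 for all genes. The median absolute log2 fold change was 0.0462 in the members and 0.0717 in all genes. The members had a median SE of 0.0387, against 0.0636 over all genes. For all 28 members with at least 20 CPM in wildtype cells, the 95% interval of the knockout level lay within 1.2-fold of wildtype either way, between 83.7% and 110.8%. For 19 of them it lay within 1.1-fold. Signs of small differences changed between fits. Against the fit of all libraries, 6 members had the opposite sign without knockout replicate 3. It was 1 or 2 members when any other single library was left out. With replicate 3 as the only knockout library it was 10. The 7 tested members under 20 CPM had wider intervals, the widest being 64.7% to 218.9% of wildtype for UPP1.

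**Figure D2:**
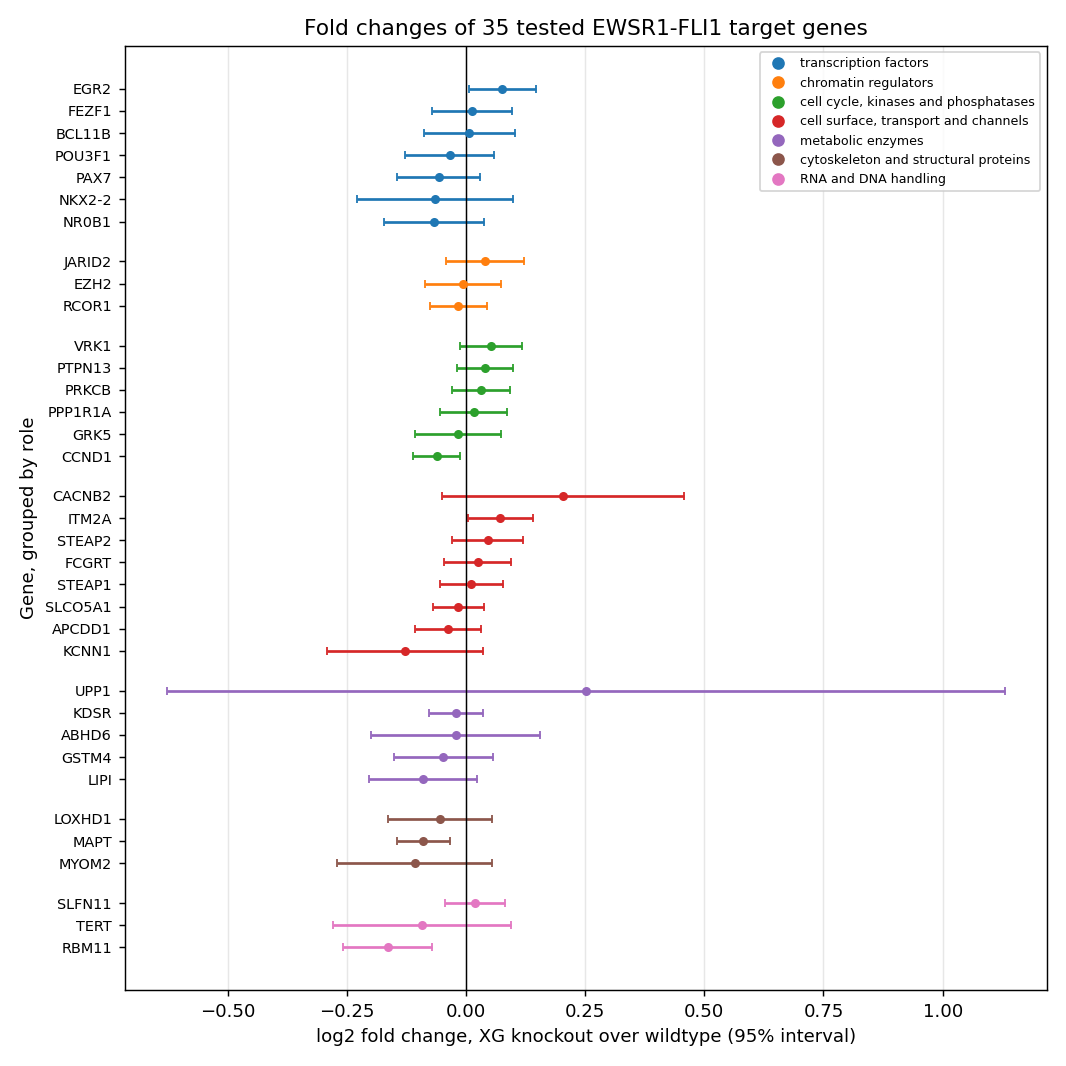
Log2 fold change of knockout over wildtype for the 35 tested genes, with 95% intervals of the edgeR fit, grouped by role. Most points lie within 0.1 of 0, RBM11 is the lowest at -0.16, and the widest interval belongs to UPP1.

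The transcription factors, which include the main effectors of the fusion, had log2 fold changes of -0.067 to 0.077, with 4 of 7 negative. NR0B1 (chromosome X, 30304206 to 30309390, minus strand, GRCh38) had 66.2, 72.4 and 78.0 CPM in knockout libraries and 77.0, 77.4 and 72.7 CPM in wildtype libraries. Knockout replicates 1 and 2 were below all wildtype libraries and replicate 3 was above them. Its log2 fold change was -0.067 (edgeR SE 0.0496, adjusted p = 0.534, and 0.0356 to 0.948 over 16 other fits). It was -0.12 without knockout replicate 3 (adjusted p = 0.0356) and kept its sign in 15 of 16 other fits. Only when replicate 3 was the sole knockout library did it turn positive, to 0.041. Without knockout replicate 1, the lowest library, it was -0.012 (adjusted p = 0.948). After correction for GC content it was -0.0087 (adjusted p = 0.944), and the transcript of NR0B1 has 57.8% GC, against a median of 48% over all genes.

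NKX2-2 had 15.3, 17.8 and 18.5 CPM in knockout and 18.5, 19.1 and 16.4 CPM in wildtype libraries, with overlapping groups. Its interval ran from 85.4% to 107.1% of wildtype. The log2 fold change of NKX2-2 was -0.065 (edgeR adjusted p = 0.733), and it was -0.12 without knockout replicate 3, 0.038 with that replicate alone and 0.0079 without knockout replicate 1 (adjusted p = 0.349 to 0.979 over 16 other fits). PAX7, a paired box factor used as a marker of Ewing sarcoma, had 61.2 ± 2.53 CPM in knockout and 63.6 ± 0.206 CPM in wildtype cells (SD, n = 3 each). BCL11B, a zinc finger factor of T cell and neuronal development, had 60.1 ± 2.66 CPM in knockout and 59.9 ± 2.60 CPM in wildtype cells (SD, n = 3 each). FEZF1, a zinc finger factor of forebrain development, had 56.2 ± 0.873 CPM in knockout and 55.7 ± 0.478 CPM in wildtype cells (SD, n = 3 each). None of these groups separated.

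EGR2, an early growth response factor and Ewing sarcoma susceptibility gene, had 102.4, 99.2 and 102 CPM in knockout libraries and 95.1, 95.1 and 97.7 CPM in wildtype libraries. Every knockout library lay above the highest wildtype library, and the log2 fold change between the groups was 0.077 (edgeR SE 0.0338, adjusted p = 0.262). POU3F1, a POU factor of neural progenitors and Schwann cells, had 113.9, 114.7 and 127.8 CPM in knockout and 125.8, 124.2 and 114.8 CPM in wildtype libraries, a log2 fold change of -0.034 (edgeR adjusted p = 0.752). It has the highest GC content of the members, 69.9%. After GC correction its log2 fold change was 0.12 (adjusted p = 0.0468), the opposite sign, and without knockout replicate 3 and with no correction it was -0.091 (adjusted p = 0.0767). Over the 16 other fits the adjusted p of POU3F1 ranged over 0.000885 to 0.972.

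Paralogs of these factors were low or undetected in some cases. NR0B2, BCL11A, FEZF2 and POU3F4 had no counts, while POU3F2 stood at 14.7 CPM per kilobase in both groups and EGR1 at 11.5 in knockout and 10.99 in wildtype cells. PAX3, the closest relative of PAX7, stood at 3.59 in knockout and 3.82 CPM per kilobase in wildtype cells. Of 46 listed paralogs of members 30 were tested, and 1 was called, PRKCA, against 1.36% of all genes tested. The paralogs' log2 fold changes had a median of -0.015.

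The 3 chromatin regulators had log2 fold changes of -0.016 to 0.04, and their groups overlapped. EZH2, the methyltransferase of Polycomb complex PRC2 that keeps Ewing cells undifferentiated, had 107.6, 109.8 and 103.2 CPM in knockout and 111.1, 102.2 and 108.6 CPM in wildtype libraries. Its log2 fold change was -0.006 (SE 0.0382), with an interval of 94.2% to 105.3% of wildtype. JARID2, a PRC2 accessory protein, had 92.0 ± 1.62 CPM in knockout and 89.5 ± 4.16 CPM in wildtype cells (SD, n = 3 each). RCOR1, a scaffold of the LSD1 corepressor, had 443 ± 14.7 CPM in knockout and 448 ± 5.24 CPM in wildtype cells (SD, n = 3 each). Among their partners, 0 of 9 PRC2 genes and 0 of 8 LSD1 corepressor genes were called, with median log2 fold changes of 0.035 and 0.027. The smallest p-values there belonged to SUZ12, a PRC2 core subunit, at a log2 fold change of 0.1 (edgeR adjusted p = 0.185), and to KDM1A, the LSD1 demethylase, at 0.055 (edgeR adjusted p = 0.308).

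Among cell cycle and signalling members, CCND1 (chromosome 11, 69641156 to 69654474, plus strand) had 1337, 1365 and 1376 CPM in knockout libraries and 1415, 1429 and 1412 CPM in wildtype libraries. Every knockout library lay below the lowest wildtype library, and the difference of -0.061 on the log2 scale (SE 0.0236) did not pass (edgeR adjusted p = 0.191). Its interval, 92.6% to 99.2% of wildtype, was among the narrowest. CCND3 stood at 9.72 in knockout and 10.5 CPM per kilobase in wildtype cells, and CCND2 at 0.0847 in knockout and 0.0961 in wildtype cells, so cyclin D1 was the predominant D-type cyclin transcript in both groups. The 9 tested partners of cyclin D had log2 fold changes with a median of -0.058. Only CDKN1A, the inhibitor p21, was called among them, against 1.36% of all genes tested. CDKN1A rose to 25.8, 24.7 and 25.2 CPM in knockout libraries, against 19.3, 19.8 and 20.9 CPM in wildtype libraries (log2 fold change 0.34, edgeR SE 0.0574, adjusted p = 0.00772). It was past the threshold in 14 of 16 other fits, and missed it when wildtype replicate 1 (0.0979) or 2 (0.0601) was left out.

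VRK1, a nuclear kinase of mitosis and DNA damage, had 163.4, 160.7 and 157.9 CPM in knockout and 157.7, 151.1 and 156.1 CPM in wildtype libraries. The groups did not overlap, with the lowest knockout library just above the highest wildtype library, at a log2 fold change of 0.052 (edgeR adjusted p = 0.426). PRKCB, protein kinase C beta, had 454 ± 14.4 CPM in knockout and 444 ± 9.47 CPM in wildtype cells (SD, n = 3 each), a log2 fold change of 0.032 (edgeR adjusted p = 0.635). Its paralog PRKCA rose to 113 ± 3.13 CPM in knockout cells, against 99.2 ± 3.57 CPM in wildtype cells (SD, n = 3 each; log2 fold change 0.18, edgeR adjusted p = 0.0179). PRKCA lost its call without wildtype replicate 1 (adjusted p = 0.161), 2 (0.0996) or 3 (0.092), or without knockout replicate 1 (0.0665), and passed in 11 of 16 other fits. The difference between both kinases was not tested.

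GRK5, a receptor kinase, and PPP1R1A, the protein phosphatase inhibitor that is a growth dependency of Ewing cells, had log2 fold changes of -0.017 and 0.016. PTPN13, a large tyrosine phosphatase, had 302 ± 6.29 CPM in knockout and 294 ± 4.61 CPM in wildtype cells (SD, n = 3 each), a log2 fold change of 0.04. None of these groups separated.

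Among surface proteins, transporters and channels, the neighbours STEAP1 and STEAP2, both of the metalloreductase family and candidate surface antigens, did not separate by group. STEAP1 had 163, 163.5 and 157 CPM in knockout and 158.2, 163.7 and 157.8 CPM in wildtype libraries, and STEAP2 had 123 ± 4.22 CPM in knockout and 119.6 ± 3.39 CPM in wildtype cells (SD, n = 3 each). Fragments that STEAP1 shares with its close copy STEAP1B were not counted, which leaves both levels uncertain. SLCO5A1, an organic anion transporter family member, had 487 ± 4.23 CPM in knockout and 492 ± 9.002 CPM in wildtype cells (SD, n = 3 each).

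ITM2A had 615, 565 and 557.5 CPM in knockout libraries and 550.2, 558 and 544 CPM in wildtype libraries. Knockout replicate 1 stood highest, and replicate 3 lay within the wildtype range. The log2 fold change was 0.072 (edgeR SE 0.0324, adjusted p = 0.268, and 0.0133 to 0.882 over 16 other fits). It was 0.099 without knockout replicate 3 (adjusted p = 0.0133) and 0.018 with that replicate alone (adjusted p = 0.882). Without knockout replicate 1 it was 0.027 (adjusted p = 0.69).

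FCGRT, the neonatal Fc receptor, had 298, 288 and 318 CPM in knockout and 291, 302.5 and 295.5 CPM in wildtype libraries, with overlapping groups and a log2 fold change of 0.025 (edgeR adjusted p = 0.761). Its transcript has 62.6% GC. After GC correction its log2 fold change was 0.12 (adjusted p = 0.00389), and 0.15 when knockout replicate 3 was also left out (adjusted p = 0.000798), while without that replicate and with no correction it was -0.015 (adjusted p = 0.792). Over 16 other fits its adjusted p ranged over 0.000798 to 0.939.

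CACNB2 had 8.195, 7.62 and 7.25 CPM in knockout and 5.86, 8.25 and 5.83 CPM in wildtype libraries, so that 1 wildtype library lay above all knockout libraries (log2 fold change 0.2, edgeR SE 0.121, adjusted p = 0.425). It was 0.39 without that library, wildtype replicate 2 (adjusted p = 0.206), 0.11 without wildtype replicate 1 (0.783), 0.12 without wildtype replicate 3 (0.748) and 0.12 with knockout replicate 3 alone (0.84). KCNN1, a calcium-activated potassium channel, had 12.01 ± 0.401 CPM in knockout and 13.1 ± 1.12 CPM in wildtype cells (SD, n = 3 each). APCDD1, an inhibitor of WNT signalling, had 253 ± 8.54 CPM in knockout and 259.8 ± 9.46 CPM in wildtype cells (SD, n = 3 each), with a log2 fold change of -0.066 without knockout replicate 3 and 0.016 with it alone. KCNN2, KCNN3 and KCNN4, other channels of the KCNN1 family, stood at up to 0.0187 in knockout and 0.0178 CPM per kilobase in wildtype cells, against 3.02 in knockout and 3.29 in wildtype cells for KCNN1.

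The member with the smallest p-value was RBM11, which encodes a tissue-restricted splicing regulator with an RNA recognition motif (chromosome 21, 14216130 to 14228372, plus strand, GRCh38). It had 55.4, 53.1 and 51.2 CPM in knockout libraries and 59.7, 57.4 and 61.8 CPM in wildtype libraries. Every knockout library lay below the lowest wildtype library, and here replicate 3 was the lowest of the knockout libraries. The knockout level was 89.3% of wildtype (interval 83.7% to 95.2%), a log2 fold change of -0.16 (SE 0.0445) that did not pass the threshold (edgeR adjusted p = 0.0738).

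RBM11 was past the threshold in 5 of 16 other fits and had the same sign in all 16, with log2 fold changes from -0.22 to -0.14. The 5 were the GC correction (adjusted p = 0.000921), the same without knockout replicate 3 (0.00207), the fits without knockout replicate 3 (0.0296) and with it alone (0.00979), and the fit without a filter on low counts (0.029). Its transcript has 35.8% GC, among the lowest of the members. The adjusted p was 0.263 without wildtype replicate 3, the highest of these fits.

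LIPI, a membrane-bound phosphatidic acid lipase, cancer-testis gene and the neighbour of RBM11 (chromosome 21, 14108813 to 14210891, minus strand), had 26.1, 24.8 and 25.4 CPM in knockout and 27.9, 26.3 and 26.9 CPM in wildtype libraries. Again the highest knockout library lay below the lowest wildtype library, with a knockout mean at 94.1% of wildtype. The log2 fold change was -0.09 (edgeR SE 0.0538, adjusted p = 0.425, and 0.141 to 0.743 over 16 other fits), and -0.14 after GC correction (adjusted p = 0.169). Neither of the promoter windows shown for RBM11 and LIPI holds the tandem GGAAGGAA.

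**Figure D3:**
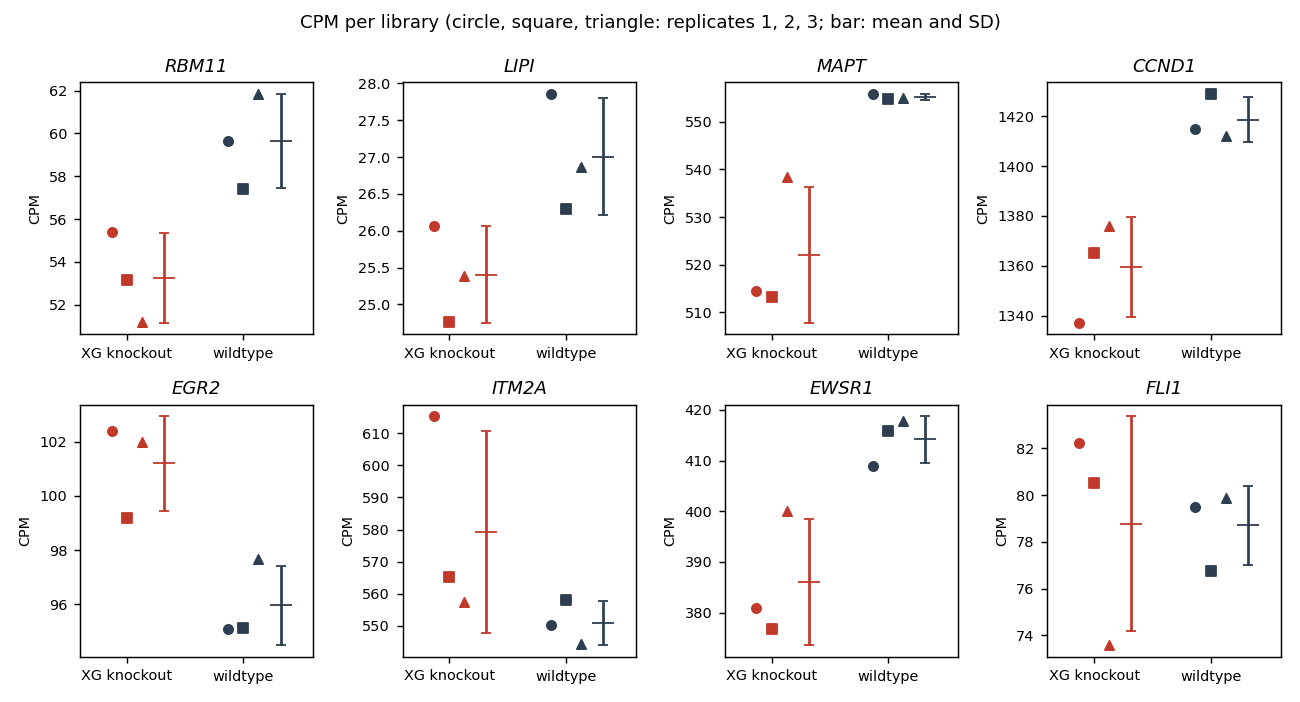
CPM per library for 6 of the targets and for EWSR1 and FLI1, with knockout libraries at the left and wildtype libraries at the right of each panel. Each panel has its own axis, which does not start at 0; markers give replicates 1 to 3, and the bar gives mean and SD. The groups do not overlap for RBM11, LIPI, MAPT, CCND1, EGR2 and EWSR1, and they overlap for ITM2A and FLI1.

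The other enzymes did not separate by group. KDSR, an enzyme of sphingolipid synthesis, had 597 ± 17.6 CPM in knockout and 605 ± 6.57 CPM in wildtype cells (SD, n = 3 each). GSTM4, a glutathione transferase, had 35.4 ± 1.03 CPM in knockout and 36.5 ± 1.384 CPM in wildtype cells (SD, n = 3 each), and its level is uncertain because fragments shared with GSTM1, GSTM2 and GSTM5 were not counted. ABHD6, a monoacylglycerol lipase, had 10.4 ± 0.599 CPM in knockout and 10.5 ± 0.796 CPM in wildtype cells (SD, n = 3 each).

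All 3 cytoskeletal and structural genes had negative log2 fold changes, and none passed. MAPT, the microtubule-associated protein tau (chromosome 17, 45894382 to 46028334, plus strand), had 514, 513 and 538 CPM in knockout libraries and 556, 555 and 555 CPM in wildtype libraries. The knockout libraries all lay below the lowest wildtype library, with replicate 3 nearest to it. The log2 fold change was -0.089 (edgeR SE 0.0265, adjusted p = 0.0993, and 0.0015 to 0.699 over 16 other fits). It was -0.11 without knockout replicate 3 (adjusted p = 0.0015) and -0.033 after GC correction (adjusted p = 0.502), with a transcript GC content of 57.4%. MYOM2, a sarcomere protein of the M band, had 10.04 ± 0.33 CPM in knockout and 10.8 ± 0.338 CPM in wildtype cells (SD, n = 3 each). Its groups did not overlap, but only just (edgeR adjusted p = 0.522). The highest knockout library had 10.41 CPM and the lowest wildtype library 10.42 CPM. LOXHD1, a stereocilia protein of the inner ear, had 51.3 ± 3.60 CPM in knockout and 53.4 ± 2.31 CPM in wildtype cells (SD, n = 3 each), with a log2 fold change of -0.086 without knockout replicate 3 and 0.011 with it alone.

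TERT had 6.99, 7.40 and 7.29 CPM in knockout and 7.71, 7.56 and 7.88 CPM in wildtype libraries. The groups did not overlap, at a log2 fold change of -0.091 (edgeR SE 0.0889, adjusted p = 0.664). Its transcript has 65.7% GC, and after GC correction the sign turned, to 0.032 (adjusted p = 0.918), and to 0.11 when knockout replicate 3 was also left out (adjusted p = 0.725). SLFN11, a replication stress factor that sensitises Ewing sarcoma to DNA-damaging drugs, had 252 ± 8.06 CPM in knockout and 249 ± 4.22 CPM in wildtype cells (SD, n = 3 each), a log2 fold change of 0.019 (edgeR adjusted p = 0.801). SLFN5, another schlafen gene, had the smallest p-value among the paralogs that were not called (log2 fold change 0.31, edgeR adjusted p = 0.0727).

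The genes that supply the fusion were measured as sums over fused and unfused transcripts, which these counts do not separate. EWSR1 (chromosome 22, 29268009 to 29300525, plus strand) had 381, 377 and 400.1 CPM in knockout and 409, 416 and 418 CPM in wildtype libraries, without overlap (log2 fold change -0.1, edgeR SE 0.0283, adjusted p = 0.0818, and 1.32e-05 to 0.554 over 16 other fits). Its adjusted p was 0.00258 after GC correction, 0.000415 without knockout replicate 3 and 0.554 with that replicate alone. FLI1 (chromosome 11, 128686535 to 128813267, plus strand) had 82.2, 80.5 and 73.6 CPM in knockout and 79.5, 76.8 and 79.9 CPM in wildtype libraries (log2 fold change 0.00089, edgeR SE 0.0427, adjusted p = 0.995). ERG, the ETS gene fused to EWSR1 in a minority of tumours, had no counts. Log2 fold changes of the 16 cofactors of the fusion had a median of -0.044, and 1 gene was called, against 1.36% of all genes tested. SMARCA4, the BRG1 ATPase of the BAF complex, fell to 397 ± 20.9 CPM in knockout cells, against 439 ± 4.86 CPM in wildtype cells (SD, n = 3 each; edgeR adjusted p = 0.0353). With 61.4% GC, it had a log2 fold change of -0.14, and of -0.054 after GC correction (adjusted p = 0.221), and -0.059 with knockout replicate 3 alone (adjusted p = 0.406). SMARCA4 was past the threshold in 6 of 16 other fits, and missed it when wildtype replicate 1 (0.18), 2 (0.155) or 3 (0.196) or knockout replicate 1 (0.108) or 2 (0.139) was left out.

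A further list of 16 activated targets outside the 36 had 2 called genes, in opposite directions, against 1.36% of all genes tested. This list too was chosen with earlier results of these data known. GRP, the neuropeptide gastrin-releasing peptide, fell to 330, 325 and 345 CPM in knockout libraries, against 383, 372 and 370.3 CPM in wildtype libraries. The highest knockout library lay below the lowest wildtype library, and the knockout mean was 88.8% of wildtype (log2 fold change -0.17, edgeR SE 0.029, adjusted p = 0.00685). GRP had the same sign in all 16 other fits and passed in 12, including GC correction (8.69e-05) and knockout replicate 3 alone (0.0034). It missed without wildtype replicate 1 (0.113), 2 (0.0586) or 3 (0.0576). IL1RAP, the accessory receptor of the interleukin-1 family, rose to 237 ± 4.65 CPM in knockout cells, against 213 ± 6.47 CPM in wildtype cells (SD, n = 3 each; log2 fold change 0.16, edgeR adjusted p = 0.0149). It passed in 10 of 16 other fits, and missed the threshold when wildtype replicate 1 (0.0979), 2 (0.0946) or 3 (0.173) or knockout replicate 1 (0.0515) or 2 (0.0726) was left out. The other 14 genes of that list did not pass, and its median log2 fold change was -0.033. Of 11 tested genes that the fusion represses, only CDKN1A was called, higher, against 1.36% of all genes tested (0.444% higher). It is the same gene that was called among the partners of cyclin D. The median log2 fold change of the repressed list was 0.039.

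**Figure D4:**
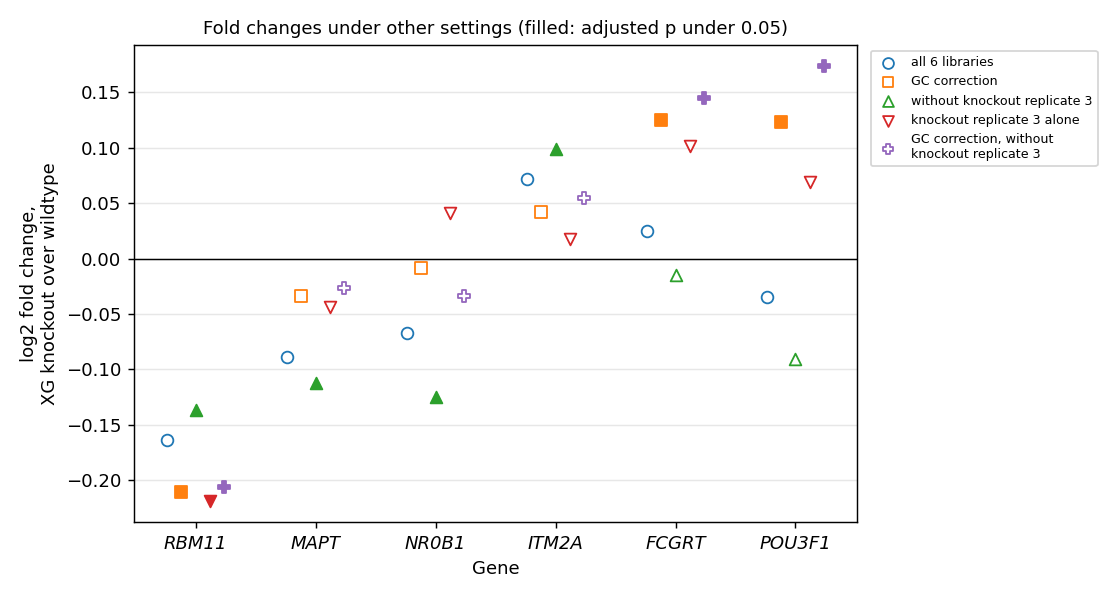
Log2 fold change of knockout over wildtype for the 6 targets called in at least 1 of the fits shown, under 5 settings, with filled markers for an adjusted p under 0.05. RBM11 stays between -0.22 and -0.14, whereas NR0B1, FCGRT and POU3F1 take both signs.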

How the data were processed

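Titles in the labels gave the group and replicate number of the 3 XG knockout and 3 wildtype libraries of TC-71. A stranded mRNA kit was used, per the labels' protocols. Per the submitters' processing notes reads were aligned with STAR 2.7.6a to GRCh38. The deposited counts are whole fragments assigned to GENCODE 33 exons by featureCounts (Subread 2.0.1) with strand-specific, paired-end settings and without counting of multi-mapping reads, per the file headers. Gene lengths, described as other values, are those of the authors' count table. The authors also deposited log2 fold changes with p-values from DESeq2 1.38.3, per the submitters' processing notes. Their direction is not stated, and 0.839% of tested genes had the opposite sign to knockout over wildtype.

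Genes were kept by filterByExpr (minimum count 10, minimum total 15), normalised by TMM and compared by the two-sided quasi-likelihood test of edgeR 4.0.16 (glmQLFit, glmQLFTest; R 4.3.3) with no covariate. Benjamini-Hochberg adjustment covered 14425 genes, with a threshold of 0.05. Each SE is the absolute fold change over the root of F, and 95% intervals came from the t distribution with edgeR's degrees of freedom. CPM are counts over TMM-adjusted library sizes, with SDs over 3 libraries. Alternatives were other scalings, DESeq2 1.42.0, limma 3.58.1 voom, other filters and thresholds, a replicate block, each library left out, knockout replicate 3 alone and GC correction (a lowess trend of span 0.5 per library on the GC content of the longest GENCODE transcript of an earlier release, available for all tested members). With 1 knockout library, that library is assumed to vary like the wildtype ones. GC correction without knockout replicate 3 was chosen after seeing the data. The members, lists and alternatives were chosen with earlier results of these data known. All members may be named; in other lists called genes and, where none was called, those with the smallest p-values are named, and paralogs by level, while SLFN5 was chosen after its values were seen. The fit was tested on simulated data with equal biological variation for every gene, no GC trend and no departing library. That test therefore does not cover those conditions. Replicates differed by more than sampling noise in each pair (chi-square per gene of at least 1.46). Counting intervals would cover counting error only.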

Additional observations from a re-analysis of the deposited data

How the results depend on the processing

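Over all genes 196 were called. The count was 647 with no filter on low counts, 339 with GC correction, 37 with the replicate block, 125 with knockout replicate 3 alone, 386 with GC correction and without knockout replicate 3, 33 at an adjusted p of 0.01 and 501 at 0.1, and it ranged from 18 to 1851 when 1 library was left out (1851 without knockout replicate 3). Of the 35 tested members 0 were called. The count was 1 with no filter (RBM11, 2.78% of members against 2.37% of all genes). It was 3 with GC correction (8.57% against 2.35%) and 3 with GC correction without knockout replicate 3 (8.57% against 2.64%). RBM11 was lower and FCGRT and POU3F1 were higher in both. At an adjusted p of 0.1 the count was 2 (RBM11 and MAPT, 5.71% against 3.47%). The count of members called otherwise depended on the library left out. It was not tested why. It ranged from 0 to 4 when 1 library was left out, the 4 being ITM2A, MAPT, NR0B1 and RBM11 without knockout replicate 3, where 12.7% of all genes were called. The members' median log2 fold change was -0.016, and it was 0.011 with knockout replicate 3 alone and moved by less than the spread between replicates (0.0109) otherwise. Of the genes on the other pathway lists (cell type markers apart) 5 were called, where 1.36% of all genes tested were called. Genes on more than 1 list were counted once. The count was 1 with the replicate block (0.256% of all genes), 2 at an adjusted p of 0.01 (0.229%) and 10 at 0.1 (3.47%). It ranged from 0 to 21 when 1 library was left out, with 21 without knockout replicate 3, where 12.7% of all genes were called. NR0B1 reversed to 0.041 with knockout replicate 3 alone, and FCGRT to -0.015 without it (range -0.015 to 0.054 when 1 library was left out). POU3F1 reversed to 0.12 with GC correction, 0.17 with GC correction without knockout replicate 3 and 0.069 with that replicate alone. FLI1, near 0, reversed to -0.0009978 by limma voom, -0.028 with GC correction, -0.097 with knockout replicate 3 alone, and in 3 of the fits without 1 library (range -0.029 to 0.048). NKX2-2 and TERT turned sign as given above. The cause of these changes was not tested. Libraries with the same replicate number did not deviate together (correlations -0.12, -0.21 and -0.12), so the numbers were not taken to pair the samples, and the replicate block called 0 members. The block also ended the calls of PRKCA (adjusted p = 0.0826), SMARCA4 (0.0826), GRP (0.0501) and IL1RAP (0.0572), and CDKN1A kept its call (0.0435). FATE1 and UPP1 are limited by depth.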
